A study of Homo sapiens with 10 samples.

Results

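The lysosome and proton pump genes described here are 38 listed human genes: 15 subunits of the vacuolar proton pump (V-ATPase), 2 proteins that accompany the pump, 5 lysosomal membrane proteins, 14 hydrolases and their helpers, and 2 receptors that carry hydrolases to the lysosome. They were matched by Ensembl ID to the deposited files, and all 38 were found among 26346 genes. Expression was measured by sequencing polyA RNA of EndoC-βH1, a clonal line of human beta cells that secretes insulin, on an Illumina HiSeq 2000. There were 5 libraries from cells exposed to an siRNA against SRp55 (siSR#2), the splicing factor encoded by SRSF6, and 5 from cells exposed to a control siRNA (siCTL). The preparations are called independent in the study's design text, every sample comes from the same line, and no treatment beyond the siRNA is given. All values come from bulk RNA, in which fewer cells expressing a gene and less RNA per cell cannot be told apart.

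The V-ATPase is a rotary proton pump. Its cytosolic V1 sector splits ATP and turns a membrane-bound V0 sector that moves protons into the lumen of lysosomes, endosomes and, in beta cells, insulin granules, where an acid interior serves prohormone processing. Lysosomal hydrolases need the same acidity. Most of them are tagged with mannose 6-phosphate in the Golgi and handed to endosomes by mannose 6-phosphate receptors, and many genes of the system share a promoter element bound by the transcription factor TFEB and its relatives.

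The siRNA target SRSF6 averaged 24.9 ± 3.78 RPKM in SRp55 siRNA libraries and 98.2 ± 3.24 RPKM in control libraries (SD, n = 5 each; limma adjusted p = 2.0e-05). RPKM, read density scaled to transcript length and to the reads of the library, is summed here over a gene's transcripts. Reads assigned to transcripts numbered 94.7 to 189.8 M in SRp55 siRNA libraries and 61.9 to 159.2 M in control libraries, and they made up 87.0% ± 7.24 of the total behind the RPKM in SRp55 siRNA libraries and 82.1% ± 6.82 in control libraries (SD, n = 5 each). SRp55 siRNA replicate 1 had the highest such share, 96.5%, and control replicate 5 the lowest, 74.2%. All 8 beta cell markers checked (INS and CHGA among them) had means above 0.5 RPKM. So did 2 of 4 acinar and duct markers (CPA1 and KRT19, summed list 41.5 to 97.4 RPKM in SRp55 siRNA and 36.3 to 53.5 RPKM in control libraries), and 1 of 4 other islet markers (SST, summed list 41.9 to 190 RPKM in SRp55 siRNA and 53.5 to 241 RPKM in control libraries). Of 5 blood cell markers, CD14 and AIF1 were above it (summed list 1.20 to 2.55 RPKM in SRp55 siRNA and 0.964 to 1.77 RPKM in control libraries), and of 4 mesenchymal and endothelial markers COL1A1 (summed list 0.733 to 6.36 RPKM in SRp55 siRNA and 0.693 to 2.67 RPKM in control libraries). GCG, PPY, GHRL, PRSS1, CELA3A, PTPRC, CSF1R, LYZ, COL3A1, PDGFRB and VWF were below it, and the part of these markers in the results was not tested.

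All 38 genes passed the filter of a mean of at least 0.5 RPKM, CTSZ only just. Of these, 1 rose, 2 fell and 35 were not called, in a limma test that called 684 of 13630 genes at an adjusted p under 0.05, which is 5.02% (3.76% higher, 513 genes, and 1.25% lower, 171 genes). TPP1, a tripeptidyl peptidase, and SCARB2, the receptor that carries beta-glucocerebrosidase to lysosomes, fell. M6PR, the cation-dependent mannose 6-phosphate receptor, rose. The median log2 fold change of the 38 genes, SRp55 siRNA over control siRNA and relative to the median tested gene, was 0.02, with 19 genes above that median gene. Groups did not overlap for 5 of the 38 genes, against 7.92% of all tested genes, and 8 had an unadjusted p under 0.05, against 21.9%. Equal replicate numbers pair the libraries, and the limma test above did not use this pairing. A fit with replicate number as a block does use it. That fit called 6 of the 38, 4 higher and 2 lower, adding LAMP1, CTSA and MCOLN1. Of all tested genes it called 13.1% (9.39% higher and 3.7% lower). Scaling by median-of-ratios size factors called 4 of the 38, 2 in each direction, where it called 6.74% of all tested genes (412 higher, 3.02%, and 507 lower, 3.72%). On summed estimated reads 8 of the 38 were called, 4 in each direction, against 17.2% of all tested genes (8.03% higher and 9.15% lower). The deposited scaling placed the median tested gene 0.11 above 0. Every log2 fold change below is set against that gene, whereas the adjusted p belongs to the change before this subtraction.

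**Figure D1:**
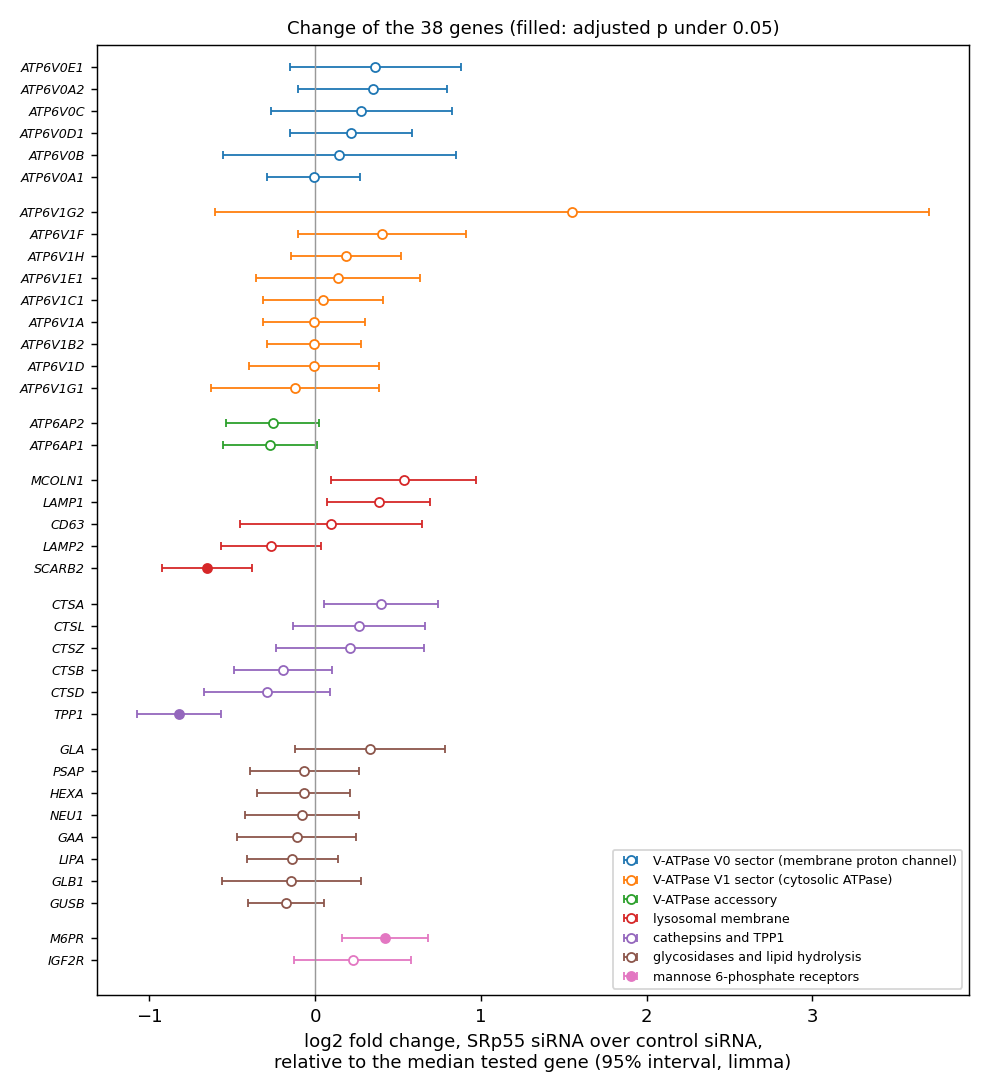
Log2 fold change of each of the 38 genes, SRp55 siRNA over control siRNA and relative to the median tested gene, on the x axis, with genes grouped by role down the page. Points are limma estimates with 95% intervals, and filled points are the 3 genes with an adjusted p under 0.05 (TPP1 and SCARB2 to the left, M6PR to the right); ATP6V1G2 has the widest interval, -0.60 to 3.70.

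TPP1 (ENSG00000166340.10, GRCh37 chromosome 11, 6634000 to 6640692) encodes the lysosomal serine protease whose loss causes a childhood form of neuronal ceroid lipofuscinosis. It measured 43.0, 44.7, 43.6, 41.2 and 33.5 RPKM in SRp55 siRNA replicates 1 to 5, and 78.2, 68.3, 64.0, 68.4 and 59.6 RPKM in control replicates 1 to 5. Every SRp55 siRNA library was below every control library, and replicate 5 was the lowest of each group. The SRp55 siRNA mean was 60.8% of the control mean, and TPP1 fell by 0.82 on the log2 scale (SE 0.12, 95% interval -1.07 to -0.57, limma adjusted p = 0.0082). The full-length transcript ENST00000299427.6 averaged 34.1 ± 3.61 RPKM in SRp55 siRNA libraries and 60.6 ± 4.80 RPKM in control libraries (SD, n = 5 each).

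SCARB2 (ENSG00000138760.4, GRCh37 chromosome 4, 77079890 to 77135046) encodes the membrane protein also known as LIMP-2. Its values were 133, 119, 122, 130 and 89.0 RPKM in SRp55 siRNA replicates 1 to 5, and 176, 175, 177, 171 and 158 RPKM in control replicates 1 to 5. The groups did not overlap, and the control libraries varied by only 4.47% of their mean (SD as a percentage), the smallest such spread among the 38 genes. SCARB2 fell by 0.65 on the log2 scale (SE 0.12, limma adjusted p = 0.034). The call was lost without SRp55 siRNA replicate 2, 3 or 4 or control replicate 1, 2, 3 or 5, with an adjusted p of 0.028 to 0.086 and a log2 fold change of -0.70 to -0.60 over the 10 fits that leave out a library.

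The 3′ UTRs of TPP1 and SCARB2 share a sequence word. Earlier results on these data had found lower expression of genes whose 3′ UTR holds the word CAGGCTT, so its presence here is a description and no independent evidence. The values by number of copies below come from the same data and are a description too. On the sense strand of the most abundant transcript with an annotated 3′ UTR (GENCODE 44), CAGGCTT occurs in 12.8% of 12587 tested genes and in 6 of the 38. TPP1 and SCARB2 hold 2 copies each, and NEU1, HEXA, PSAP and ATP6V1F hold 1 copy each. Some GENCODE 44 transcripts differ in length from the deposited ones. For NEU1 the 3′ UTR has 2063 bases there, whereas the whole deposited transcript has 2045, so its site may lie outside the measured transcript. The sites of these 6 genes are shown to compare the flanks, with the word in capitals:
TPP1, first copy: tcttttcaatCAGGCTTttccaaagggt
TPP1, second copy: ggatagaattCAGGCTTtcccctccagc
SCARB2, first copy: cacctccttgCAGGCTTgttgcctgttg
SCARB2, second copy: cttttagctcCAGGCTTttctaaccaga
NEU1: gctgggattaCAGGCTTgagcccctgca
HEXA: gtagtggagcCAGGCTTccactgcatcc
PSAP: ctggaataatCAGGCTTtttaaatgatg
ATP6V1F: ggcctctcccCAGGCTTgccatcagcct

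Among the genes with a 3′ UTR, 273 (2.17%) hold 2 or more copies. Their median log2 fold change was -0.14 and 7.69% of them were called lower. The 1338 genes with 1 copy had a median of -0.09 and 3.96% called lower, and the 10976 genes with none a median of 0.02 and 0.774% called lower. Of the 38, both genes with 2 copies were the 2 called lower, whereas the 4 with 1 copy were not called, at log2 fold changes of -0.08 for NEU1, -0.07 for HEXA, -0.06 for PSAP and 0.40 for ATP6V1F. M6PR holds no copy. The median 3′ UTR read here was 590.5 bases long over the 38 genes and 995 bases over all genes with one. Those of TPP1 and SCARB2 were longer, at 1781 and 2979 bases, and those with 1 copy ran from 154 (HEXA) to 2063 bases (NEU1). A longer 3′ UTR has more room for any word, and the part of length in these values was not tested.

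**Figure D2:**
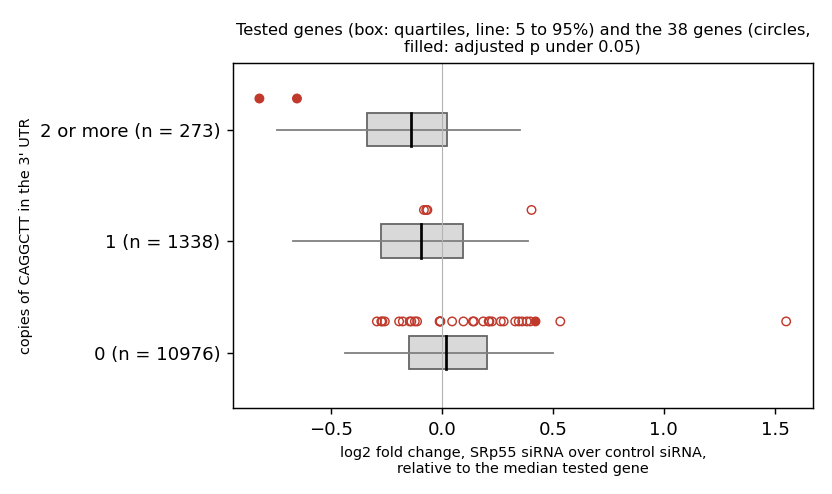
Log2 fold change relative to the median tested gene (x axis) for genes with 0, 1, or 2 or more copies of CAGGCTT in the 3′ UTR (rows), with boxes for the quartiles and lines for the 5th to 95th percentiles of all tested genes. Circles are the 38 genes, filled where the adjusted p was under 0.05; the 2 circles in the top row are TPP1 and SCARB2, and the filled circle in the bottom row is M6PR.

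M6PR (ENSG00000003056.3, GRCh37 chromosome 12, 9092959 to 9102551) measured 92.9, 80.7, 82.2, 73.8 and 92.0 RPKM in SRp55 siRNA replicates 1 to 5, and 57.1, 55.2, 57.7, 71.6 and 50.4 RPKM in control replicates 1 to 5. The lowest SRp55 siRNA library, replicate 4, was only just above the highest control library, which also was replicate 4. M6PR rose to 144% of the control mean (log2 fold change 0.42, SE 0.12, limma adjusted p = 0.032). Without SRp55 siRNA replicate 1, 2 or 3, or control replicate 1, 2, 3 or 5, the call was lost (adjusted p 0.013 to 0.085 and log2 fold change 0.35 to 0.48 over the fits without 1 library).

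Most M6PR signal lay in the 2198-base transcript ENST00000541507.1, which GENCODE 44 annotates nonsense_mediated_decay. It averaged 47.2 ± 2.15 RPKM in SRp55 siRNA libraries and 36.8 ± 2.36 RPKM in control libraries, without overlap (SD, n = 5 each). The 412-base retained_intron transcript ENST00000543834.1 averaged 18.6 ± 5.48 RPKM in SRp55 siRNA and 9.50 ± 4.56 RPKM in control libraries. As a share of M6PR, retained_intron transcripts held 22.6% ± 5.89 in SRp55 siRNA and 17.7% ± 4.87 in control libraries, and the groups overlapped. The usage test across M6PR's transcripts was not called (limma adjusted p = 0.65). M6PR overlaps PHC1, on the other strand, over 1105 bases. PHC1 averaged 32.7 RPKM over all libraries, and whether counting used strand is not given in the sources used here, so reads of the overlap may be shared.

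IGF2R, the cation-independent mannose 6-phosphate receptor, which also binds IGF2, measured 38.2, 46.6, 34.5, 33.8 and 31.0 RPKM in SRp55 siRNA replicates 1 to 5, and 35.9, 25.1, 29.1, 34.6 and 21.8 RPKM in control replicates 1 to 5. The groups overlapped (log2 fold change 0.23, SE 0.16, limma adjusted p = 0.25, and 0.13 on the log2 scale without SRp55 siRNA replicate 2, its highest library). Its level was lower than that of M6PR in both groups, with means of 36.8 RPKM against 84.3 in SRp55 siRNA libraries and 29.3 against 58.4 in control libraries.

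Another 3 genes were close to the threshold of the unpaired test and were called with the replicate block, which uses the pairing. LAMP1 (ENSG00000185896.9, GRCh37 chromosome 13, 113951556 to 113977987), a major glycoprotein of the lysosomal membrane, measured 387, 257, 251, 250 and 283 RPKM in SRp55 siRNA replicates 1 to 5, and 211, 198, 191, 221 and 180 RPKM in control replicates 1 to 5. The groups did not overlap, with SRp55 siRNA replicate 1 far above the others. LAMP1 had a log2 fold change of 0.38 with an SE of 0.14 (limma adjusted p = 0.071, and 0.045 with the replicate block).

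CTSA (ENSG00000064601.12, GRCh37 chromosome 20, 44518783 to 44527459), which encodes cathepsin A, the protective protein of beta-galactosidase and neuraminidase, was the second most abundant of the 38 by its mean. It measured 620, 443, 441, 459 and 411 RPKM in SRp55 siRNA replicates 1 to 5, and 408, 299, 316, 381 and 268 RPKM in control replicates 1 to 5. All SRp55 siRNA libraries were above all control libraries, the closest pair being 411 and 408 RPKM. CTSA had a log2 fold change of 0.40 with an SE of 0.16 (limma adjusted p = 0.091, and 0.018 with the replicate block or 0.040 under median-of-ratios scaling). CTSA shares 1144 bases with NEURL2 on the other strand, which averaged 3.33 RPKM.

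MCOLN1 (ENSG00000090674.11, GRCh37 chromosome 19, 7587512 to 7598895), the cation channel mucolipin 1, which releases calcium from lysosomes, measured 33.2, 21.5, 21.8, 30.0 and 24.6 RPKM in SRp55 siRNA replicates 1 to 5, and 23.2, 14.1, 13.1, 21.4 and 12.7 RPKM in control replicates 1 to 5. The groups overlapped, yet each SRp55 siRNA library was above the control library of its own number. MCOLN1 had a log2 fold change of 0.53 with an SE of 0.20 (limma adjusted p = 0.093, and 0.013 with the replicate block). All 3 of these genes had an adjusted p under 0.05 on summed estimated reads (0.007 for LAMP1, 0.006 for CTSA and 0.017 for MCOLN1), in a fit that called 17.2% of all tested genes.

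**Figure D3:**
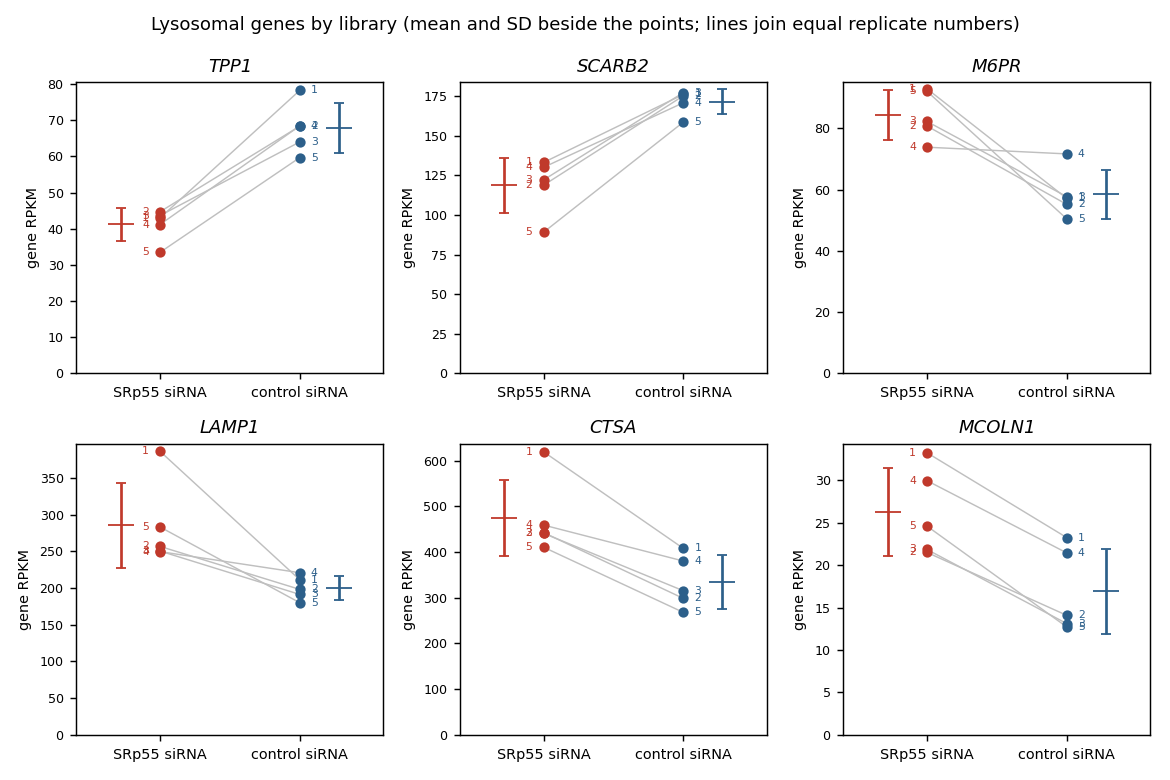
Gene RPKM (y axis, from 0) of TPP1, SCARB2, M6PR, LAMP1, CTSA and MCOLN1 in each library, with SRp55 siRNA on the left and control siRNA on the right, replicate numbers beside the points, and bars for mean and SD (n = 5 each). TPP1 and SCARB2 are lower in every SRp55 siRNA library, and for LAMP1 and CTSA SRp55 siRNA replicate 1 is the highest point, at 387 and 620 RPKM.

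None of the 15 pump subunits was called in either direction, and the 95% intervals of all 15 included 0. Their median log2 fold change was 0.15, with 10 of 15 above the median tested gene. The 6 V0 genes had a median of 0.25 and the 9 V1 genes 0.05. The intervals do not show that the subunits kept their level: the upper bounds of V0 genes reached 0.88 and those of V1 genes other than ATP6V1G2 reached 0.91.

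In the V0 sector, ATP6V0C, the proteolipid of the rotating ring, measured 513, 235, 252, 282 and 232 RPKM in SRp55 siRNA replicates 1 to 5, and 277, 184, 188, 309 and 174 RPKM in control replicates 1 to 5. Only SRp55 siRNA replicate 1 was above the highest control library. Its log2 fold change of 0.28 (SE 0.25, limma adjusted p = 0.40) became 0.11 without that library. ATP6V0B, the second kind of ring subunit, had means of 207 ± 57.9 RPKM in SRp55 siRNA and 185 ± 98.8 RPKM in control libraries (SD, n = 5 each). ATP6V0E1, a small membrane subunit, averaged 207 ± 40.4 RPKM in SRp55 siRNA and 154 ± 52.1 RPKM in control libraries (SD, n = 5 each). ATP6V0D1, which couples ring and stalk, averaged 107 ± 20.2 RPKM in SRp55 siRNA and 85.0 ± 14.96 RPKM in control libraries (SD, n = 5 each), and both genes had overlapping groups.

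The a subunit steers the pump to its membrane. Among its isoforms, ATP6V0A1 and ATP6V0A2 belong to the 38 genes, while TCIRG1, on the second list, averaged 6.43 ± 2.30 RPKM in SRp55 siRNA and 6.96 ± 3.29 RPKM in control libraries (SD, n = 5 each), and ATP6V0A4 was listed at 0 in all libraries. ATP6V0A1, a form abundant in neurons, ranged from 73.4 to 99.8 RPKM in SRp55 siRNA and 67.7 to 97.2 RPKM in control libraries, with a log2 fold change of -0.01 (95% interval -0.29 to 0.27, limma adjusted p = 0.69). ATP6V0A2, a form of Golgi and endosomes, was at 16.2, 11.8, 14.9, 12.5 and 11.2 RPKM in SRp55 siRNA replicates 1 to 5, and 11.3, 5.74, 9.76, 13.998 and 8.65 RPKM in control replicates 1 to 5, groups that overlapped (log2 fold change 0.35, SE 0.21, limma adjusted p = 0.23). The log2 fold change was 0.19 without control replicate 2 and 0.16 on summed reads. ATP6V0A2 made up 13.1% ± 1.81 of the summed RPKM of ATP6V0A1 and ATP6V0A2 in SRp55 siRNA libraries and 10.6% ± 2.65 in control libraries (SD, n = 5 each).

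In the V1 sector the catalytic A subunit, ATP6V1A, averaged 80.1 ± 8.12 RPKM in SRp55 siRNA and 75.1 ± 12.3 RPKM in control libraries (SD, n = 5 each). ATP6V1B2, the B subunit that alternates with it in the head, was at a similar level, 84.0 ± 12.4 RPKM in SRp55 siRNA and 78.0 ± 8.73 RPKM in control libraries (SD, n = 5 each). The other V1 genes apart from the G isoforms were ATP6V1C1, ATP6V1D, ATP6V1E1, ATP6V1F and ATP6V1H, which build the stalks and regulate the joining of the sectors. Their control means lay between 34.1 RPKM for ATP6V1H and 117 RPKM for ATP6V1F. ATP6V1F measured 180, 167, 158, 169 and 123 RPKM in SRp55 siRNA replicates 1 to 5, and 143, 87.2, 86.3, 185 and 82.6 RPKM in control replicates 1 to 5. Control replicate 4 was the highest of all 10, and the log2 fold change of 0.40 (SE 0.23, limma adjusted p = 0.22) was 0.54 without it (adjusted p = 0.045).

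The G subunit of the peripheral stalk has a ubiquitous form, ATP6V1G1, and a form known from the brain, ATP6V1G2. ATP6V1G1 measured 178, 78.6, 78.8, 90.9 and 66.6 RPKM in SRp55 siRNA replicates 1 to 5, and 85.5 to 106 RPKM in control libraries. Replicate 1 stood above all other libraries, while 3 of the other SRp55 siRNA libraries were below the lowest control library. Its log2 fold change of -0.12 (SE 0.23, limma adjusted p = 0.98) became -0.32 without SRp55 siRNA replicate 1 (adjusted p = 0.28).

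ATP6V1G2 was the most uneven of the 38 genes. It measured 30.8, 31.3, 4.29, 22.2 and 1.06 RPKM in SRp55 siRNA replicates 1 to 5, and 0.666, 2.75, 1.88, 25.1 and 1.83 RPKM in control replicates 1 to 5. Thus 3 SRp55 siRNA libraries and 1 control library were above 20 RPKM and the other libraries were below 5 RPKM. The log2 fold change of 1.55 had an SE of 0.98 and was not called (limma adjusted p = 0.36). The 662-base transcript ENST00000483251.1 carried 91.8%, 93.6% and 93.8% of the gene's RPKM in the 3 high SRp55 siRNA libraries and 92.0% in the high control library, and it was listed at 0 in both other SRp55 siRNA libraries and in control replicates 1 and 2. ATP6V1G2 shares 1558 bases with NFKBIL1 on the other strand and 2147 bases with the readthrough gene ATP6V1G2-DDX39B on its own strand, so its reads may be shared with both.

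**Figure D4:**
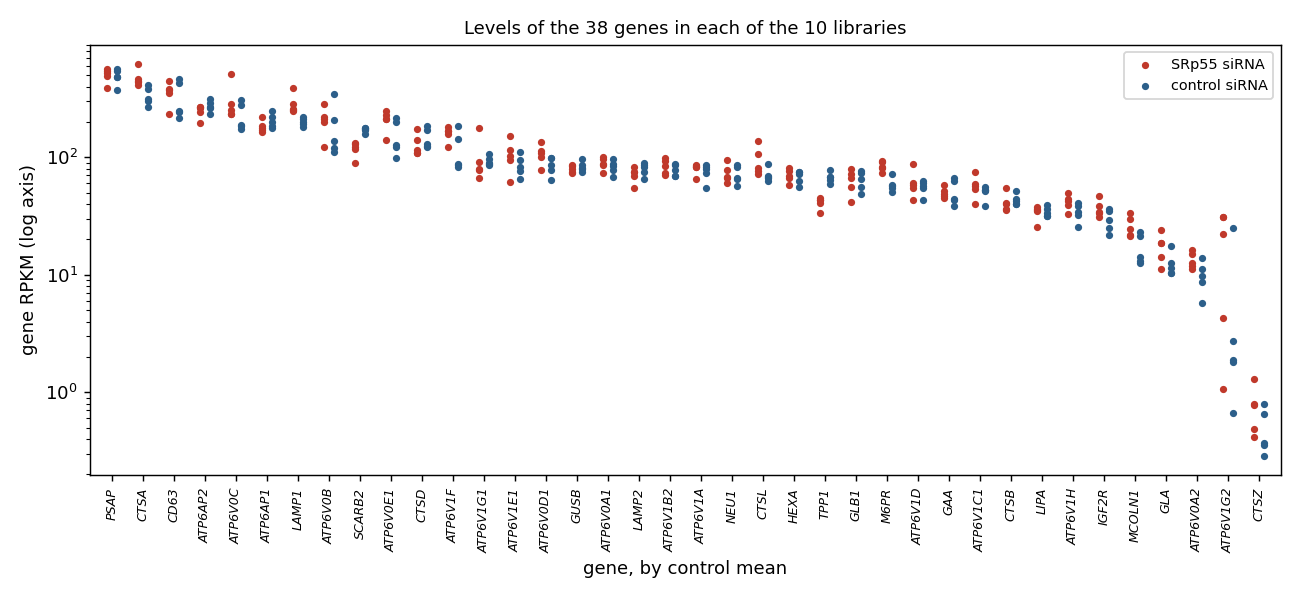
Gene RPKM (log y axis) of the 38 genes in each of the 10 libraries, ordered by control mean on the x axis, SRp55 siRNA points on the left and control siRNA points on the right of each gene. Most genes lie within a narrow band in both groups, ATP6V1G2 spans 0.666 to 31.3 RPKM, and CTSZ is the lowest.

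The 2 accessory proteins, ATP6AP1 and ATP6AP2 (the prorenin receptor), assist pump assembly, and both were among the abundant members. ATP6AP2 measured 262, 244, 266, 267 and 194 RPKM in SRp55 siRNA replicates 1 to 5, and 310, 267, 290, 261 and 235 RPKM in control replicates 1 to 5. The groups overlapped (log2 fold change -0.26, SE 0.13, limma adjusted p = 0.54). ATP6AP1 averaged 184 ± 22.7 RPKM in SRp55 siRNA and 206 ± 28.7 RPKM in control libraries (SD, n = 5 each).

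Among the membrane proteins, LAMP2, the partner of LAMP1 that also serves chaperone-mediated autophagy, averaged 71.5 ± 10.8 RPKM in SRp55 siRNA libraries and 79.5 ± 9.71 RPKM in control libraries (SD, n = 5 each). CD63, a tetraspanin of late endosomes and exosomes, measured 449, 372, 353, 379 and 236 RPKM in SRp55 siRNA replicates 1 to 5, and 427, 242, 250, 463 and 215 RPKM in control replicates 1 to 5. Control replicates 1 and 4 were as high as the top SRp55 siRNA libraries, and CD63 had a log2 fold change of 0.10 with an SE of 0.25 (limma adjusted p = 0.67).

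Of the proteases besides TPP1 and CTSA, the aspartic protease CTSD averaged 129 ± 27.5 RPKM in SRp55 siRNA and 146 ± 29.5 RPKM in control libraries (SD, n = 5 each). The cysteine protease CTSB averaged 41.5 ± 7.66 RPKM in SRp55 siRNA and 43.7 ± 4.94 RPKM in control libraries (SD, n = 5 each). CTSL, another cysteine protease, averaged 94.5 ± 27.0 RPKM in SRp55 siRNA and 71.1 ± 10.02 RPKM in control libraries (SD, n = 5 each; log2 fold change 0.27, limma adjusted p = 0.26, and a log2 fold change of 0.16 without SRp55 siRNA replicate 1 or on summed reads). CTSZ, a carboxypeptidase, was near the filter, at 0.753 ± 0.345 RPKM in SRp55 siRNA libraries and 0.494 ± 0.221 RPKM in control libraries (SD, n = 5 each), so it passed through its SRp55 siRNA level.

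None of the 8 genes for glycosidases and lipid hydrolysis was called, and 7 of 8 were below the median tested gene, with a median log2 fold change of -0.10. PSAP, the precursor of the saposins that help break down sphingolipids, was the most abundant of all 38 genes. It measured 541, 561, 526, 494 and 387 RPKM in SRp55 siRNA replicates 1 to 5, and 561, 482, 480, 542 and 373 RPKM in control replicates 1 to 5. Replicate 5 was the lowest in each group, and the groups overlapped almost fully (log2 fold change -0.06, SE 0.15, limma adjusted p = 0.89).

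GLA, the alpha-galactosidase lost in Fabry disease, measured 23.9, 14.1, 18.6, 18.7 and 11.2 RPKM in SRp55 siRNA replicates 1 to 5, and 12.7, 10.4, 11.4, 17.4 and 10.4 RPKM in control replicates 1 to 5 (log2 fold change 0.33, SE 0.21, limma adjusted p = 0.24). The groups overlapped, although each SRp55 siRNA library was above the control library of its number. GLA lies on the strand opposite to the readthrough gene RPL36A-HNRNPH2, which averaged 21.6 RPKM over all libraries, so its level is less certain. The remaining 6 had control means between 34.5 RPKM for LIPA, the acid lipase, and 83.8 RPKM for GUSB, the beta-glucuronidase. They include GAA, which breaks down glycogen, HEXA, a subunit of the hexosaminidase that clears gangliosides, the beta-galactosidase GLB1 and the sialidase NEU1.

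Transcript usage, the percentage of a gene's RPKM held by 1 transcript, could be tested for 34 of the 38 genes, those with at least 2 transcripts of enough signal. None was called, in a test that called 40 of 9915 genes, 0.403% (limma diffSplice, adjusted p under 0.05 and a shift of at least 10 percentage points). An unadjusted p under 0.05 was found for CTSL, GLB1 and SCARB2, 3 of 34, against 8.34% of all genes tested. In 6 genes some transcript moved by at least 10 points. The share of all tested genes with such a shift is not given here, so this count has no comparison.

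The GLB1 transcript ENST00000307363.5 held 58.6%, 54.2%, 47.2%, 21.2% and 69.8% of the gene in SRp55 siRNA replicates 1 to 5, and 87.8%, 69.5%, 58.1%, 73.0% and 77.6% in control replicates 1 to 5. It was lower in each SRp55 siRNA library than in the control library of its number, but the groups overlapped, and the mean difference of -23.0 points was -15.8 without SRp55 siRNA replicate 4 (limma adjusted p = 0.34 for the gene). For CTSL, the coding transcript ENST00000340342.6 held 71.7%, 27.9%, 43.3%, 42.2% and 39.4% in SRp55 siRNA replicates 1 to 5, and 65.0%, 56.6%, 67.0%, 64.6% and 68.8% in control replicates 1 to 5. Its share was below every control library in SRp55 siRNA replicates 2 to 5 and above them in replicate 1 (mean difference -19.5 points, limma adjusted p = 0.33 for the gene).

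Transcripts annotated retained_intron held 47.7% ± 16.3 of CTSL in SRp55 siRNA libraries and 24.9% ± 1.72 in control libraries (SD, n = 5 each). The groups overlapped, since SRp55 siRNA replicate 1, at 23.3%, was below every control library (23.5% to 27.3%). This sum was not tested. The retained_intron transcript ENST00000495822.1 was below 1 RPKM in every control library. It was at 0.803, 26.0, 0.497, 6.47 and 16.3 RPKM in SRp55 siRNA replicates 1 to 5. It was high in replicates 2, 4 and 5 only, and its adjusted p was 0.42 (limma). The other shifts of at least 10 points were in GLA (-13.98 points), ATP6V0B (12.2), ATP6V1G2 (11.5) and ATP6V1E1 (-11.2), all with overlapping groups. Single libraries moved these values: over the fits without 1 library the difference ran from 0.44 (without control replicate 1) to 25.5 points (without SRp55 siRNA replicate 3) for ATP6V1G2, and from 5.40 (without SRp55 siRNA replicate 2) to 23.01 points (without control replicate 4) for ATP6V0B. For ATP6V1E1, an E subunit of the stalk, a single library carried most of the shift, since ENST00000253413.5 held 22.1% of the gene in SRp55 siRNA replicate 3 and 45.9% to 77.7% in the other SRp55 siRNA libraries, against 51.7% to 71.6% in control libraries.

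**Figure D5:**
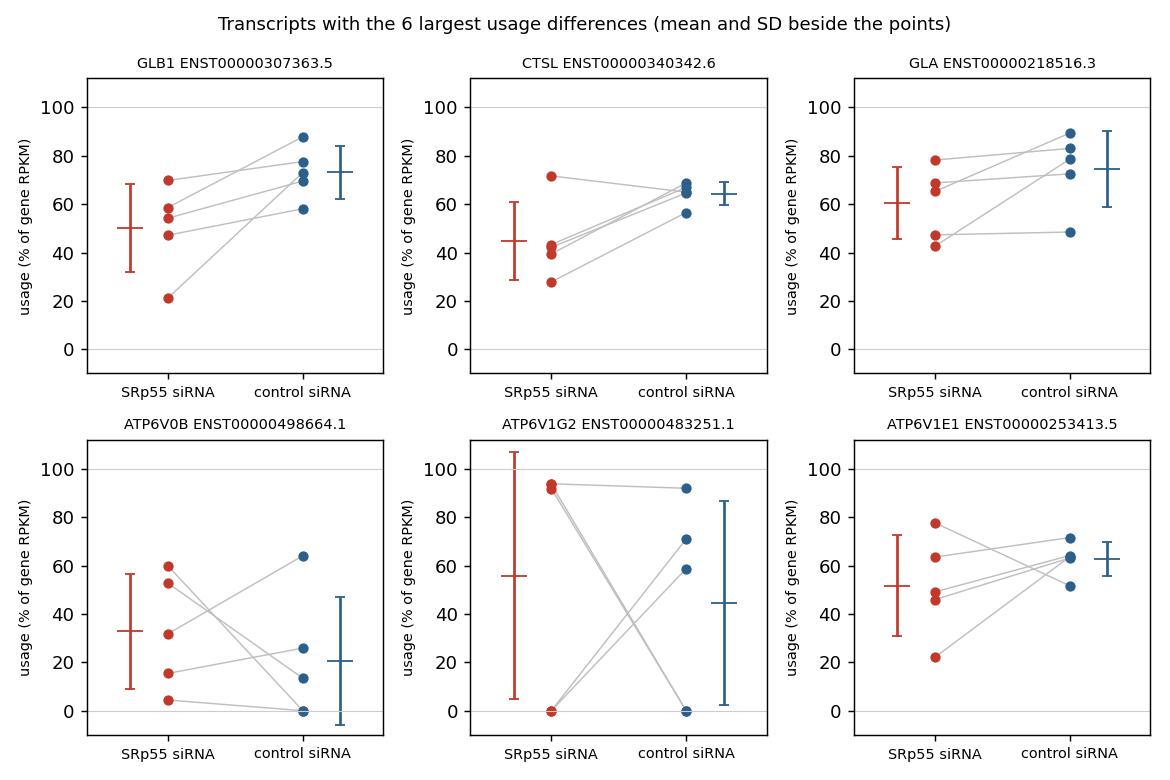
Usage, in percent of gene RPKM (y axis), of the transcript with the largest shift in each of 6 genes, SRp55 siRNA on the left and control siRNA on the right, with lines joining equal replicate numbers and bars for mean and SD (n = 5 each). Groups overlap in all 6 panels, and the ATP6V1G2 transcript lies either at 0% or at 58.7% and more in each library.

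Promoters of 29 of the 38 genes were found in the RefSeq promoter table (GRCh38.p14), which spans 250 bases before to 50 bases after each listed start. The E-box CACGTG, the centre of the element read by TFEB, was searched with its longer forms TCACGTGA and GTCACGTGAC. All 3 read the same on both strands and are nested, so a promoter that holds a longer form is counted for the shorter ones too. A gene was counted when any of its listed promoters held the sequence. CD63 has 8 listed promoters, LIPA 3, and M6PR, ATP6V0C, ATP6V1E1 and ATP6V1G2 2 each, which gives them more room for a match. CACGTG was found in 12 of the 29 genes (41.4%), against 12.4% of 10586 tested genes with a promoter and 11 of 61 other lysosome genes (18.0%). TCACGTGA was found in 7 of 29 (24.1%, against 2.26% of tested genes) and GTCACGTGAC in 4 of 29 (13.8%, against 0.879%). ATP6V0B, CD63, CTSD and NEU1 hold only the 6-base form and are not shown. Windows of 30 bases (1 per gene, longest form in capitals) are shown for the 7 genes with TCACGTGA and for M6PR, which was called:
IGF2R promoter, chr6:159969042-159969071, plus strand: ccgggcggctGTCACGTGACgcggttccgg
ATP6V1G1 promoter, chr9:114587699-114587728, plus strand: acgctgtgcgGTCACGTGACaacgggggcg
GAA promoter, chr17:80101493-80101522, plus strand: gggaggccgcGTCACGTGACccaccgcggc
MCOLN1 promoter, chr19:7522598-7522627, plus strand: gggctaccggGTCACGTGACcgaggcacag
LAMP1 promoter, chr13:113297199-113297228, plus strand: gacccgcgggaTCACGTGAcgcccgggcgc
CTSA promoter, chr20:45891298-45891327, plus strand: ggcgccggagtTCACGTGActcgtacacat
ATP6V0D1 promoter, chr16:67481199-67481228, minus strand: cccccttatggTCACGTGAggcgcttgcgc
M6PR promoter, chr12:8949473-8949502, minus strand: agtttcccacgaCACGTGagtgtgaggggc

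The 12 genes with CACGTG had a median log2 fold change of 0.18, with 8 of 12 above the median tested gene. The 17 without it had a median of -0.01, with 8 of 17 above. Over all tested genes the medians were 0.01 with the word and 0.00 without it. Values of genes with the word ran from -0.29 for CTSD to 0.53 for MCOLN1. M6PR, LAMP1, CTSA and MCOLN1 hold it, and TPP1 and SCARB2 do not. Of the 4 genes with the 10-base form, MCOLN1 was at 0.53, IGF2R at 0.23, GAA at -0.11 and ATP6V1G1 at -0.12. TFEB and its relatives TFE3 and MITF, on the second list, were at -0.42, -0.14 and -0.15 and were not called. The part of the word in these changes was not tested. No promoter entry was given for HEXA, LAMP2, CTSB, ATP6V1H, ATP6V1C1, ATP6V1A, ATP6V1B2, PSAP or ATP6V0E1.

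Of 81 other lysosome and proton pump genes on a second list, 75 were tested, 1 rose, 1 fell and 73 were not called, which is 2.67% called against 5.02% of all tested genes. Their median log2 fold change was -0.11, with 25 of 75 above the median tested gene. The replicate block called 8 of the 75, 4 in each direction, against 13.1% of all tested genes. Median-of-ratios scaling called 5, with 1 higher and 4 lower, against 6.74%, and summed reads called 12, with 2 higher and 10 lower, against 17.2%. NAGPA, which uncovers the mannose 6-phosphate tag that M6PR and IGF2R bind, measured 35.3, 18.6, 22.8, 21.3 and 21.5 RPKM in SRp55 siRNA replicates 1 to 5, and 16.1, 13.3, 13.8, 14.7 and 11.9 RPKM in control replicates 1 to 5. It was higher in every SRp55 siRNA library (log2 fold change 0.62, SE 0.16, limma adjusted p = 0.032). LITAF, a membrane protein of late endosomes, measured 3.17, 2.46, 2.95, 3.20 and 2.24 RPKM in SRp55 siRNA replicates 1 to 5, and 5.22, 3.59, 4.83, 4.23 and 4.45 RPKM in control replicates 1 to 5. All SRp55 siRNA libraries were below all control libraries (log2 fold change -0.70, SE 0.13, limma adjusted p = 0.030). The 3′ UTR of LITAF holds CAGGCTT once and that of NAGPA holds no copy. Copies in the other genes of the second list are not given here, so this is a description only. Each call was lost in 5 of the 10 fits that leave out a library, not always the same ones (limma adjusted p up to 0.080 for NAGPA and 0.075 for LITAF).

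Single libraries ran through many of these values. SRp55 siRNA replicate 1 was the highest of the 10 libraries for 17 of the 38 genes, against 26.9% of all tested genes, and control replicate 5 was the lowest for 21 of the 38, against 23.2%. SRp55 siRNA replicate 5 was the lowest for 10 of the 38, against 21.6%. In the median over the 38 genes, SRp55 siRNA replicate 1 was 0.38 above and control replicate 5 was 0.39 below the gene's mean on the log2 scale, against 0.18 above and 0.20 below over all tested genes. These are also the libraries with the highest and the lowest share of assigned reads, and the part of that share in the values was not tested. Genes whose most abundant transcript is shorter than 1000 bases varied more between control libraries. The SD was 36.3% of the mean in the median of 7 such genes. It was 13.7% for 18 genes with a transcript of 2000 bases or more. The contrast was less clear between SRp55 siRNA libraries, where the long genes ran from 6.46% (GUSB) to 23.6% (GLB1). Of the short genes, only ATP6V1G2 (80.5%) and CTSZ (45.9%), which is near the filter, were above that range. Genes of lengths in between were left out, values over all tested genes are not given here, and the part of length was not tested.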

How the data were processed

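PolyA RNA of EndoC-βH1 cells was sequenced from 5 SRp55 siRNA and 5 control siRNA libraries, grouped by the sample labels. TopHat and the build GRCh37 (hg19) are named per the submitters' processing notes. Not given in the sources used here are the way reads were assigned to transcripts, the annotation and the role of strand. The deposited files, which are the authors' own, list 155130 transcripts of 26346 genes, each with an estimated read count and an RPKM value in a shared text field, so limma on RPKM was the test and edgeR on counts was not run.

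Transcript RPKM were summed per gene, and symbols and biotypes came from GENCODE 44. The 13630 genes whose mean reached 0.5 RPKM entered limma (version 3.58.1, under R 4.3.3) as log2(RPKM + 0.5), with the trend and robust settings, and p-values were adjusted over all of them by Benjamini-Hochberg. This scale understates the change of low genes. Usage was tested with diffSplice on transcripts of at least 0.5 RPKM and 5% usage. The scripts were tested on simulated data. The 95% intervals are limma's. RPKM precision rests on 61.9 to 189.8 M assigned reads per library, and genes of the group had 24 (CTSZ) to 234513 (PSAP) reads.

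The genes and lists were chosen with earlier results of these data known. Genes described in full are those called, those with the 10 smallest p, the 5 most abundant, both isoform pairs, the 6 largest usage shifts and called genes of the second list; others are given by level. Equal replicate numbers pair the libraries: deviations from the group means correlated at 0.13 to 0.41 for equal numbers and at most 0.12 for different ones. All 10 libraries correlated best with the library of their own number. The main test did not use this pairing, and the replicate block did. Alternatives were 2 pseudocounts (0.1 and 1), 2 filters (none and 1 RPKM), median-of-ratios scaling, summed reads, a replicate block, a fit without the robust option and leaving out each library.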

Additional observations from a re-analysis of the deposited data

Results flagged for a closer look

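Levels of the 38 genes, SRSF6, NAGPA and LITAF were screened in groups of 5 libraries, with usage of the 6 most shifted transcripts. In 12 of 94 such groups (12.8%, with a nominal rate of about 5%, or 1 in 20) a single library stood apart from the other 4. The gap to its nearest neighbour was 0.717 to 0.935 of the group's range. RPKM was not log-transformed here, and some genes and transcripts were picked for their calls or shifts. The nominal rate may therefore not hold, and the share does not show an excess over chance. For 6 of the 12 that library was SRp55 siRNA replicate 1. It was the highest of its group for ATP6V0C at 513 RPKM (others 232 to 282), for ATP6V1G1 at 178 RPKM (others 66.6 to 90.9), for LAMP1 at 387 RPKM (others 250 to 283), for CTSA at 620 RPKM (others 411 to 459), for CTSB at 54.5 RPKM (others 35.7 to 41.0) and for NAGPA at 35.3 RPKM (others 18.6 to 22.8). SRp55 siRNA replicate 5 was the lowest of its group for ATP6V1A at 65.8 RPKM (others 82.0 to 85.9) and for LIPA at 25.6 RPKM (others 34.7 to 37.9). Among control libraries, replicate 5 was low for ATP6V1C1 at 38.8 RPKM (others 51.6 to 55.7), replicate 1 was high for CTSL at 88.4 RPKM (others 62.3 to 69.6), and replicate 4 was high for ATP6V1G2 at 25.1 RPKM (others 0.666 to 2.75). Control replicate 3 was low for SRSF6 at 92.4 RPKM (others 99.5 to 99.99). The 12 cases are not independent, since all values of a library share its preparation and scaling.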

How the results depend on the processing

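TPP1 was called in all 18 alternatives. The count of the 38 genes called (3) was 8 on summed reads, 6 with the replicate block, and 1 (without SRp55 siRNA replicate 2, for example) to 4 (without control replicate 4) when a library was left out. Summed reads also called ATP6AP1 and GUSB lower, named after their values were seen. For all tested genes (684), the count was 2341 on summed reads, 1784 with the replicate block, and 259 (without control replicate 2) to 1083 (without control replicate 4). For the second list (2), it was 12 on summed reads, 8 with the replicate block, 5 under median-of-ratios scaling, and 0 to 3 without 1 library. Usage calls over all genes (40) were 20 at a minimum of 10% usage and 24 (without SRp55 siRNA replicate 2) to 59 (without control replicate 4); the 38 genes had 0 usage calls in all 17 alternatives. Among the genes described, the pairing moved the calls of LAMP1, CTSA and MCOLN1 only. The log2 fold change of PSAP changed sign without the filter (0.010), and that of ATP6V0A1 without the filter (0.066) and in fits without 1 library (-0.045 to 0.040). The causes of these differences were not tested. Depth limits CTSZ, with 24 to 160 reads, most.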
